A study of Oryctolagus cuniculus with 35 samples.

Results

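SELP, TEK and SLC6A2 are 3 genes that blood vessel lining can express, and their transcripts were followed here in rabbit lung. They were taken by their symbols from the 4 deposited tables, where each has 1 row (ENSOCUG00000016477, ENSOCUG00000017666 and ENSOCUG00000017310), and are 3 of 23669 genes. They were selected on measured values, the difference of their levels between healthy lungs and diseased lungs given only saline. Values from that contrast are therefore given as a description with no test. The study sequenced lung messenger RNA of 35 New Zealand rabbits in 5 groups of 7. The healthy group received saline (NaCl) and neither infection nor injurious ventilation. The other 4 groups all had pneumococcal pneumonia together with adverse mechanical ventilation, so infection and ventilation cannot be told apart. The treatments were NaCl, an infusion of mesenchymal stromal cells from human umbilical cord (MSC), the cephalosporin antibiotic ceftaroline at 20 mg/kg into muscle, or ceftaroline plus MSC. Treatment came 4 h after the bacteria, and lung was taken at 24 h or at an earlier death. A lung taken at an earlier death is not marked as such in the labels used here.

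P-selectin, the product of SELP, is an adhesion receptor stored in the Weibel-Palade bodies of endothelial cells and in the granules of platelets. Inflammatory stimuli bring it to the cell surface, where it catches rolling leukocytes, and in several species they also raise its transcription. TEK encodes TIE2, the receptor tyrosine kinase for the angiopoietins, whose activity keeps vessels quiet and tight. SLC6A2 encodes the noradrenaline transporter, which sympathetic nerve endings use to take noradrenaline back up and which lung endothelium uses to clear it from the blood.

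The libraries held 7567008 to 33209729 reads summed over genes, and depth differed by group. Healthy libraries held 7567008 to 12794413, NaCl 7611988 to 14948358 and MSC 9642813 to 11987726. Ceftaroline libraries held 11499403 to 33209729, and those of the combined group 11137017 to 18271138. In whole lung, fewer endothelial cells and less RNA per cell cannot be told apart. Of 22 pan-endothelial genes matched by symbol, 17 were measured well enough to be tested and 5 (CLDN5, FLT1, ERG, NOS3 and ENG) were listed at 0 in every library. So were 10217 of all 23669 genes, among them the surfactant gene SFTPC and the lymphocyte gene CD3E. A listed 0 is therefore not read here as absence of the transcript. The summed level of the 22 pan-endothelial genes ranged from 133574 to 177014 normalized reads in healthy lungs and from 45823 to 119861 in NaCl lungs. CAV1 and RAMP2 weighed most in the healthy sum, with means of 60022 and 32853 there and 24816 and 5927 in NaCl lungs. PECAM1 and CDH5 went the other way, from means of 3643 and 5460 to 7893 and 7621. Of the 17 tested genes, 7 were higher and 10 lower in NaCl by log2 difference, so the sum does not measure the amount of endothelium. Endothelial RNA was thus present in each group, but these data do not show which cells made the 3 transcripts. Platelets also hold P-selectin. The summed level of 9 platelet genes, of which TUBB1 was at 0, ranged from 1123 to 2061 in healthy and from 1197 to 2715 in NaCl lungs. NBEAL2 and ITGB3 made up most of it, with healthy means of 1041 and 252. The platelet glycoprotein genes GP1BA, GP5 and GP9 had healthy means of only 5.01, 1.11 and 16.5, so the sum says little about platelets. Of the nerve markers, PHOX2A did not exceed 1.01 normalized reads in any library, and the sum of 11 sympathetic genes ranged from 531 to 2487 in healthy and from 311 to 1091 in NaCl lungs. That sum was mostly UCHL1 and GAP43, with means of 1093 and 328 in healthy and 466 and 179 in NaCl lungs. STMN2, SNAP25, NPY and SYT1 had healthy means of 1.82, 0.54, 0.15 and 0.21, so the sum says little about nerve. Sample titles end in PD or PG in 5 healthy, 3 NaCl (replicates 5 to 7) and 2 MSC libraries (replicates 6 and 7), and a mark S00 is found on the 7 healthy libraries and NaCl replicate 2. Neither is explained in the labels, and the mark goes nearly with the disease. The title letters are not explained either. NaCl and MSC libraries with an ending have I, L or N, where the rest of these groups have B or C. Healthy replicates 6 and 7 have D, the letter of the ceftaroline titles. The part of endings, mark and letters in the results below was not tested beyond the values without libraries with an ending or without NaCl replicate 2.

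SELP was scarce in healthy lung and abundant in pneumonia. Levels here and in the next paragraphs are reads divided by a size factor computed over all 35 libraries. They are not per length, so levels of different genes are not compared. Across the 7 healthy lungs SELP had a lowest level of 220, a median of 299 and a highest level of 812. In NaCl lungs the lowest was 9656, the median 11704 and the highest 22972. No NaCl lung came near a healthy one, and the NaCl median stood 39.1-fold above the healthy median. The MSC group ran from 534 through a median of 6103 to 10737. The ceftaroline group ran from 456 through 6722 to 13035. The combined group ran from 537 through 4422 to 6133. Each treated group thus held at least 1 lung inside the healthy range of SELP and others more than 10-fold above the healthy median.

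Most treated lungs had less SELP than any NaCl lung: 6 of 7 in the MSC, 5 of 7 in the ceftaroline and 7 of 7 in the combined group. Some lungs in each group were far lower than the rest. In the combined group 3 lungs (replicates 3, 5 and 6) had 669, 537 and 1038, and the other 4 had 4422 to 6133. In the ceftaroline group replicate 7 had 456 and replicate 3 had 2070, against 3394 to 13035 in the other 5. In the MSC group only replicate 6, with 534, lay below 4032.

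TEK went the other way. Its healthy levels ran from 1083 through a median of 1420 to 1999. In NaCl lungs they ran from 167 through 285 to 633, so that the healthy median was 4.99-fold higher and the ranges did not overlap. MSC lungs had 234 to 1581 with a median of 389. Ceftaroline lungs had 249 to 703 with a median of 567, and lungs given both had 331 to 831 with a median of 604. Of the 28 pneumonia lungs, MSC replicate 6 with 1581 was the only one within the healthy range of TEK. Without it the MSC mean was 362 ± 111 (SD, n = 6), and with it 536 ± 472 (SD, n = 7).

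SLC6A2 had the widest spread of the 3 genes within each pneumonia group, by the SD of log2 levels, though not within the healthy group. Healthy lungs had 1324 to 4063 with a median of 1628. NaCl lungs had 12.9 to 899 with a median of 35.1, which is 46.4-fold under the healthy median, again with no overlap. In the MSC group the lowest level was 13.3, the median 42.3 and the highest 5659. In the ceftaroline group the lowest was 3.02, the median 49.1 and the highest 620. In the combined group the lowest was 5.85, the median 272 and the highest 5158. The highest level belonged to replicate 3, and the next highest lung of that group had 1009. No pneumonia lung lay within the healthy range of SLC6A2. Combined replicate 3 and MSC replicate 6, with 5158 and 5659, lay above the highest healthy lung, and the rest lay below the lowest.

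**Figure D1:**
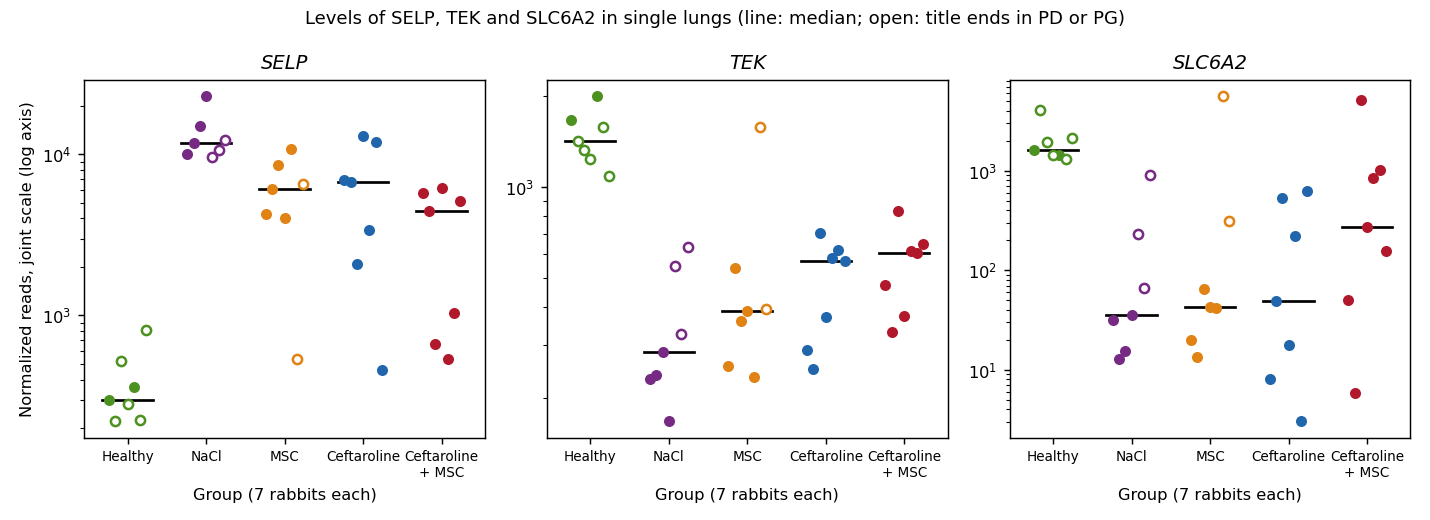
Each point is the level of 1 lung in normalized reads on a log axis, for SELP, TEK and SLC6A2 in 5 groups of 7, with the group median as a line and open points for titles that end in PD or PG. SELP is lowest and TEK is highest in the healthy group, and MSC replicate 6 stands apart from its group in all 3 panels.

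Ordered by the mean of log2 levels, SELP was highest in NaCl, then MSC, ceftaroline, ceftaroline plus MSC and healthy, and each group overlapped its neighbour in that order. For TEK the order was healthy, ceftaroline plus MSC, ceftaroline, MSC and NaCl. Healthy did not overlap the combined group there, and the other neighbours did. For SLC6A2 the order was healthy, ceftaroline plus MSC, MSC, NaCl and ceftaroline, with every neighbour overlapping. The last step of that order, 0.08 on the log2 scale, is small beside a pooled SD of 2.56.

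Levels were also set beside the title endings within each group, with PD and PG pooled, and the direction was not the same throughout. PD occurred only in healthy titles, and every ending among pneumonia titles was PG. Healthy replicate 6 was the only healthy library with PG, at 225 for SELP, 1579 for TEK and 1324 for SLC6A2. The healthy values with an ending are thus mostly those of PD. In NaCl lungs SLC6A2 was 12.9 to 35.1 in the 4 libraries without an ending and 65.7 to 899 in the 3 with one. In MSC lungs it was 13.3 to 64.2 in 5 libraries without and 316 and 5659 in the 2 with an ending. TEK in NaCl lungs was 167 to 285 without and 326 to 633 with an ending. In MSC lungs TEK overlapped, at 234 to 540 without and 393 and 1581 with an ending. In healthy lungs TEK was higher without an ending, at 1667 and 1999, than with one, at 1083 to 1579. SELP overlapped between the 2 kinds of NaCl library, at 10057 to 22972 without and 9656 to 12270 with an ending. In healthy lungs, SLC6A2 was 1452 and 1628 without and 1324 to 4063 with an ending, so it overlapped there.

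The other genes of each pathway show in what setting the 3 genes differed between healthy and NaCl lungs. On the scale of the table that holds both groups, log2 differences were 5.18 (SE 0.28) for SELP, -2.19 (SE 0.26) for TEK and -4.87 (SE 0.75) for SLC6A2. By limma with Benjamini-Hochberg adjustment, 60.6% of all 9545 genes tested were called at an adjusted p under 0.05, 29.7% higher and 30.9% lower in NaCl. All 3 genes were among them, which the choice of the genes fixed. The share of all genes whose healthy and NaCl ranges did not overlap is not given here, so lack of overlap does not set the 3 apart. By size of difference, SELP stood 45th of 2836 genes called higher, SLC6A2 7th and TEK 437th of 2952 called lower. The lists that follow exclude the 3 genes.

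SELP's partners in leukocyte adhesion moved in both directions. Of 21 listed genes matched, 7 were listed at 0 in all libraries, among them the integrin subunits ITGAM, ITGB2 and ITGAL and their ligand ICAM1. Their levels are thus unknown here. Of 13 tested, 3 rose and 3 fell, 6 in all, a smaller share than among all genes, and the median log2 difference was 0.18 against 0.00 for all genes tested. SELE, the E-selectin of activated endothelium, rose from a mean of 17.2 ± 18.3 (SD) to 475 ± 426, a log2 difference of 4.20 (SE 0.79, adjusted p = 0.000298). PECAM1, which lines endothelial junctions, rose by 1.12 (SE 0.21). The sialyltransferases ST3GAL4 and ST3GAL6, which help build selectin ligands, differed by -1.05 and -0.99, and ICAM2, an adhesion molecule of resting endothelium, by -1.17. VCAM1, an adhesion receptor for lymphocytes and monocytes, had 2510 ± 1006 and 4400 ± 2572 and was not called (adjusted p = 0.261).

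The Weibel-Palade body list, which covers the store of P-selectin, had 6 genes higher and 4 lower of 12 tested, with a median of 0.61. CXCL8, a chemokine that these bodies can hold but that many cell types make, rose from 78.4 ± 20.4 to 74288 ± 79518. TNFRSF11B, the decoy receptor osteoprotegerin, rose by 2.25 (SE 0.40), VAMP3, a membrane fusion protein, by 0.78 (SE 0.17), and CD63, a tetraspanin of the organelle's membrane, by 0.84 (SE 0.20). VWF, the body's main cargo, differed by -0.96 (SE 0.31, adjusted p = 0.0133), and SYTL4, a granule adaptor, by -1.07 (SE 0.18, adjusted p = 9.25e-05). SELP thus stood far higher in NaCl lungs while the VWF transcript was lower and those of CXCL8 and TNFRSF11B, of the same list, were higher.

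In the angiopoietin and TIE list every tested gene was called, 3 higher and 8 lower of 11, with a median of -1.27. The ligand ANGPT1, an activator of TIE2, fell from 1907 ± 340 to 528 ± 638 (log2 difference -2.74, SE 0.59, adjusted p = 0.000871), although a NaCl lung overlapped the healthy range. TIE1, the co-receptor, fell from 1710 ± 246 to 724 ± 198 (-1.27, SE 0.17, adjusted p = 1.27e-05). PTPRB, a phosphatase that restrains TIE2, was lower by -2.15 (SE 0.30). Downstream, the adaptors GRB7 and PIK3R1 differed by -2.02 (SE 0.18) and -1.59 (SE 0.14), and the adaptor SHC1 by 1.08 (SE 0.13). ANGPT2, the ligand that can oppose ANGPT1, was listed at 0 in all libraries. Members of this list act on other receptors too.

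Amine handling was lower at several steps. Of 8 genes tested, 1 was higher and 5 were lower, with a median of -1.40. SLC6A4, the serotonin transporter, which lung endothelium also carries, fell from 1179 ± 294 to 177 ± 128 (-3.04, SE 0.40, adjusted p = 9.91e-06). MAOB, which breaks down amines inside cells, fell from 2406 ± 444 to 648 ± 393 (-2.10, SE 0.32, adjusted p = 3.94e-05). The adrenergic receptors ADRA1B and ADRB1 fell by 3.39 and 2.06 on the log2 scale. ADRA2A, another adrenergic receptor, rose from 12.9 ± 9.32 to 38.8 ± 28.2 (adjusted p = 0.045). SLC22A3, a second and less selective uptake route for noradrenaline, had 52.9 ± 9.09 and 82.7 ± 32.9 and was not called (adjusted p = 0.0657).

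Markers of other cells differed between the same groups. Of 17 pan-endothelial genes tested 3 were higher and 9 lower (median -0.84), of 18 genes of endothelial subtypes 3 and 7, of 6 platelet genes 1 and 0, and of 3 sympathetic genes 0 and 2. All 6 neutrophil genes tested were higher (median 5.07), all 7 called of 8 alveolar epithelial genes were lower, and so were all 6 called of 11 fibroblast and smooth muscle genes. EMCN and RAMP2, both endothelial, fell by 2.61 and 2.58 on the log2 scale, while SOX7 and PROCR rose by 1.37 and 1.22. The venous marker ACKR1 rose from 958 ± 396 to 2769 ± 1503, but EPHB4, a venous gene of the same list, went the other way. On the scale of all 35 libraries EPHB4 had 2330 ± 561 in healthy and 924 ± 418 in NaCl lungs. The part of cell composition in the levels of the 3 genes was not tested. In the 2 healthy and 4 NaCl libraries without an ending, fewer genes were called (3650), including 2 of the adhesion and 4 of the Weibel-Palade body genes, and TEK differed by -2.99.

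**Figure D2:**
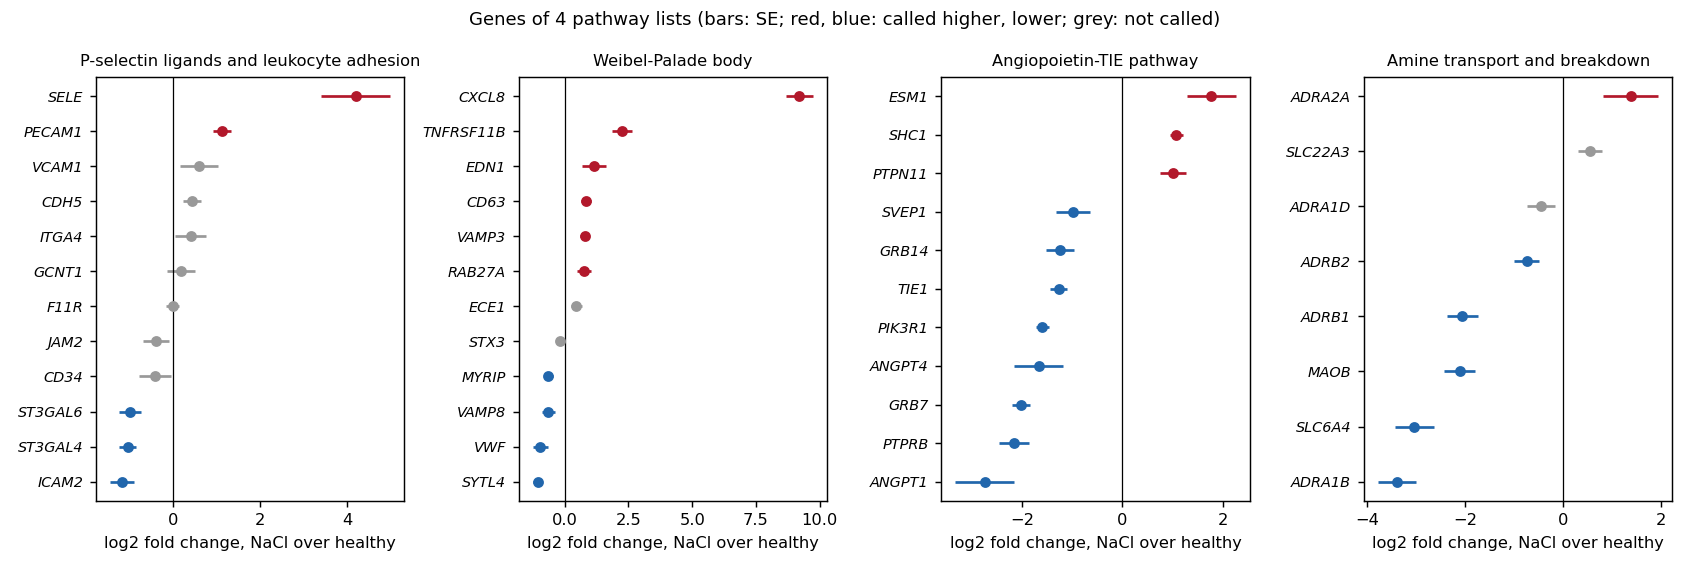
Log2 differences of NaCl over healthy lungs with their standard errors (7 against 7), for tested genes of 4 lists (all but 1 of them shown) without SELP, TEK and SLC6A2, coloured by whether limma called them. SELE and CXCL8 lie farthest right, and in the angiopoietin list 8 of 11 genes lie to the left of 0.

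None of the 3 genes passed the threshold with MSC alone or with ceftaroline alone. Both comparisons use the NaCl libraries, which also chose the genes and are shared by both, so their values stand side by side only. By limma 0.00% of 9446 genes were called for MSC against NaCl and 0.00% of 9614 for ceftaroline against NaCl. At an unadjusted p under 0.05 there were 1672 and 1760. edgeR also called none of either, with 1731 and 1881 at an unadjusted p under 0.05, while DESeq2 called 335 and 519. The counts of 335 and 519 did not include the 3 genes.

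SELP differed by -1.49 (SE 0.52) for MSC, with an unadjusted p of 0.0115 and an adjusted p of 0.198 by limma, and all 7 MSC lungs lay under the NaCl mean. Without MSC replicate 6 the difference was -0.98. For ceftaroline SELP differed by -1.56 (SE 0.60, adjusted p = 0.200), with 6 of 7 lungs under the NaCl mean. Without ceftaroline replicate 7 it was -1.02. The authors' deposited table gives -1.16 for MSC with an adjusted p of 0.102, and -1.03 for ceftaroline with an adjusted p of 0.213.

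TEK differed by 0.48 (SE 0.40, limma adjusted p = 0.556) for MSC and by 0.55 (SE 0.32, adjusted p = 0.373) for ceftaroline. Without MSC replicate 6 the former was 0.17. SLC6A2 differed by 0.60 (SE 1.25, adjusted p = 0.839) for MSC, a direction that turned to -0.38 without MSC replicate 6, and by -0.06 (SE 1.23, adjusted p = 0.985) for ceftaroline. With standard errors above 1, differences of several-fold in SLC6A2 were not detectable in groups of this size.

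Adding MSC to ceftaroline used no library of the contrast that chose the genes. On the scale of that table SELP had 8426 ± 6335 with ceftaroline alone and 4482 ± 3346 with both (SD, n = 7 each), a difference of -0.90 (SE 0.80, limma adjusted p = 0.585). It was -1.43 without ceftaroline replicate 7 and -0.55 without combined replicate 5. TEK differed by 0.22 (SE 0.27, adjusted p = 0.675), with 0.083 to 0.34 when single libraries were left out. SLC6A2 differed by 2.11 (SE 1.49, adjusted p = 0.512), and 4 of 7 lungs given both exceeded the ceftaroline mean. With single libraries left out the SLC6A2 difference ranged from 1.39, without combined replicate 3, to 2.99. None of the 3 was among the 0.0403% of 9924 genes called there. The effect of MSC with ceftaroline, less its effect without, was 0.59 (SE 0.95, adjusted p = 0.976) for SELP, -0.25 (SE 0.48, adjusted p = 0.986) for TEK and 1.51 (SE 1.94, adjusted p = 0.971) for SLC6A2, where 0.265% of all genes were called by that test. With single libraries left out these ranged from 0.053 to 0.93, from -0.42 to 0.058 and from 0.78 to 2.49.

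The combined treatment set against NaCl gave the only called difference of a member among pneumonia groups. This pair has no deposited table and was compared on the scale of all 35 libraries, a comparison chosen after the data were seen. SELP fell from 13157 ± 4668 to 3389 ± 2531 (SD, n = 7 each), a difference of -2.48 (SE 0.56, limma adjusted p = 0.00679). All 7 combined lungs lay under the lowest NaCl lung, but the share of all genes separated in this way is not given here. Across the alternatives run, the adjusted p ranged from 0.00534 to 0.0267. Of all 9692 genes 27.0% were called, 13.5% higher and 13.5% lower, so a call alone does not set SELP apart. The NaCl libraries here also chose SELP for its high level, so the difference is not independent of that choice.

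TEK had 346 ± 175 and 553 ± 173, a difference of 0.75 (SE 0.29, adjusted p = 0.0695). It passed the threshold without NaCl replicate 5 (0.89, adjusted p = 0.0402), without NaCl replicate 7 (0.92, adjusted p = 0.0262) or without combined replicate 2 (0.87, adjusted p = 0.0415). SLC6A2 had 184 ± 324 and 1072 ± 1844, a difference of 2.02 (SE 1.30, adjusted p = 0.266), or 1.30 without combined replicate 3. Against MSC alone, the combined group differed by -0.97 (SE 0.74, adjusted p = 0.643) for SELP, 0.29 (SE 0.36, adjusted p = 0.780) for TEK and 1.43 (SE 1.48, adjusted p = 0.738) for SLC6A2, where 0.0413% of 9689 genes were called. Without MSC replicate 6 these were -1.48, 0.60 and 2.42. With other single libraries left out they reached -0.63 for SELP (combined replicate 5), 0.15 for TEK (MSC replicate 5) and 0.71 for SLC6A2 (combined replicate 3).

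**Figure D3:**
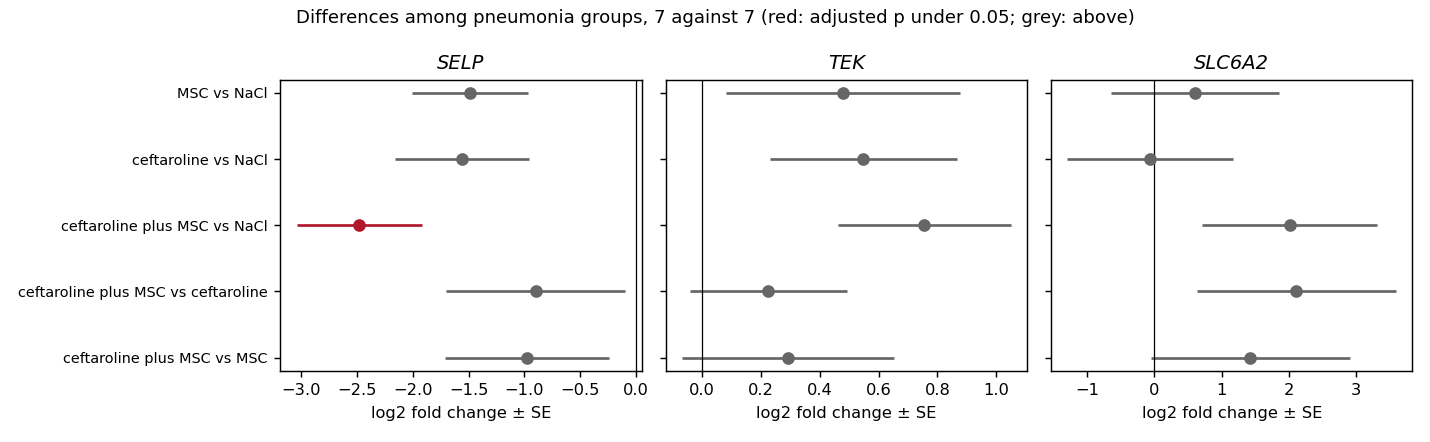
Log2 differences of SELP, TEK and SLC6A2 with their standard errors (x axes, with a scale of their own in each panel) in 5 comparisons of pneumonia groups, 7 lungs against 7. Only SELP in ceftaroline plus MSC against NaCl, at -2.48, is past the threshold, and the bars of SLC6A2 are the widest.

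The counts of pathway genes called in the combined group against NaCl are to be read beside the 27.0% of all genes called. Of the adhesion list 2 were higher and 2 lower of 13 tested, of the Weibel-Palade body list 1 and 5 of 13, of the angiopoietin and TIE list 2 and 2 of 11, and of the amine list 1 and 0 of 8. The amine call, the adrenergic receptor ADRA1D (adjusted p = 0.0494), was lost when single libraries were left out in 11 of 14 cases. PECAM1 fell from 7893 ± 2223 to 3237 ± 616 (-1.26, SE 0.19, adjusted p = 0.00124) and CDH5, the cadherin of endothelial junctions, by 0.87 on the log2 scale, while ICAM2 and ST3GAL4 rose by 0.81 and 0.86. In the Weibel-Palade body list CXCL8 fell from 93999 ± 100652 to 4154 ± 3456 and EDN1, the vasoconstrictor endothelin, from 2238 ± 1501 to 514 ± 386. RAB27A and VAMP3, both of granule traffic, and ECE1, the enzyme that matures endothelin, fell by 1.05, 0.61 and 0.75, and SYTL4 rose by 0.61. VWF was not called.

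In the angiopoietin and TIE list TIE1 rose from 916 ± 253 to 1596 ± 551 (0.79, SE 0.21, adjusted p = 0.0153), and ANGPT4, a further TIE2 ligand, from 44.1 ± 67.5 to 102 ± 46.2. SHC1 fell by 0.66 and ESM1, a proteoglycan of activated endothelium, with a log2 difference of -2.30 (SE 0.45) and an adjusted p of 0.00348. Without combined replicate 2 the count of this list was 7. Beside these, all 6 neutrophil genes tested were lower (median -3.15), and their summed level had a median of 896194 in NaCl and 120885 in combined lungs. Of 11 fibroblast, pericyte and smooth muscle genes 4 were higher and 0 lower (median 0.52), and of 11 monocyte and macrophage genes 1 was higher and 2 were lower. Of 6 platelet genes 0 were called by limma. Of 17 pan-endothelial genes, TIE1 was higher and 5 were lower (PECAM1, CDH5, ROBO4, SOX7 and TAL1), with a median of 0.00. The part of these cell types in the SELP difference was not tested. In the other 4 comparisons of pneumonia groups no listed pathway gene was called by limma, including the 2 in which it called 0 genes in all.

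Within treated groups, lungs with more SELP tended to have less SLC6A2. Over the 21 treated lungs, after subtraction of each group's mean, Pearson's r of log2 levels was -0.796 and Spearman's rho -0.71 (permutation test, two-sided, p = 2e-05 and 0.0004, adjusted over 18 relations to 0.00036 and 0.0072). Without the 2 lungs farthest from the median of SELP r was -0.706, and without MSC replicate 6 it was -0.737. SELP and TEK had r -0.652 (permutation test, adjusted p = 0.00702) and rho -0.53 (adjusted p = 0.0676), and TEK and SLC6A2 had r 0.664 (adjusted p = 0.00702) and rho 0.538 (adjusted p = 0.0676). Without the 2 farthest lungs these r were -0.504 and 0.451. The permutation tests here shuffled all 21 lungs, not lungs within a group, and took no account of the subtracted means. Their p-values may thus be too low.

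The 5 treated lungs with the lowest SELP show the pattern in single values. Ceftaroline replicate 7 had 456 for SELP and 620 for SLC6A2. MSC replicate 6 had 534 and 5659. Combined replicates 5, 3 and 6 had 537, 669 and 1038 for SELP and 848, 5158 and 1009 for SLC6A2. The treated lung with the most SELP, ceftaroline replicate 4, had 13035 for SELP and 17.6 for SLC6A2. Not every lung followed the order: in the combined group replicate 4, with the most SELP (6133), had 272 for SLC6A2, and replicate 2, with less SELP (4422), had 5.85.

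Within single groups of 7 the relation of SELP to SLC6A2 held only in part. It was r -0.858 in ceftaroline (exact permutation test, adjusted p = 0.0312, rho -0.893 with adjusted p = 0.0676), and -0.753 in ceftaroline plus MSC (exact permutation test, adjusted p = 0.123). In MSC lungs it was -0.781 (exact permutation test, adjusted p = 0.171) and became 0.246 without replicate 6, so it rests on that lung. In NaCl lungs r was -0.266 and in healthy lungs -0.0145 (exact permutation tests, adjusted p = 0.598 and 0.977). Such relations were common among genes: 688 of 6638 ranked genes had an r of at least 0.7 in size with SELP over 35 libraries after subtraction of group means, 268 with TEK and 944 with SLC6A2. On those 35 libraries r was -0.716 for SELP and SLC6A2, -0.595 for SELP and TEK and 0.670 for TEK and SLC6A2. With SELP, 4.52% of genes had an r at least as negative as that of SLC6A2, and 12.8% as that of TEK. For TEK and SLC6A2, 4.76% of genes had an r at least as high with TEK and 9.82% with SLC6A2.

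**Figure D4:**
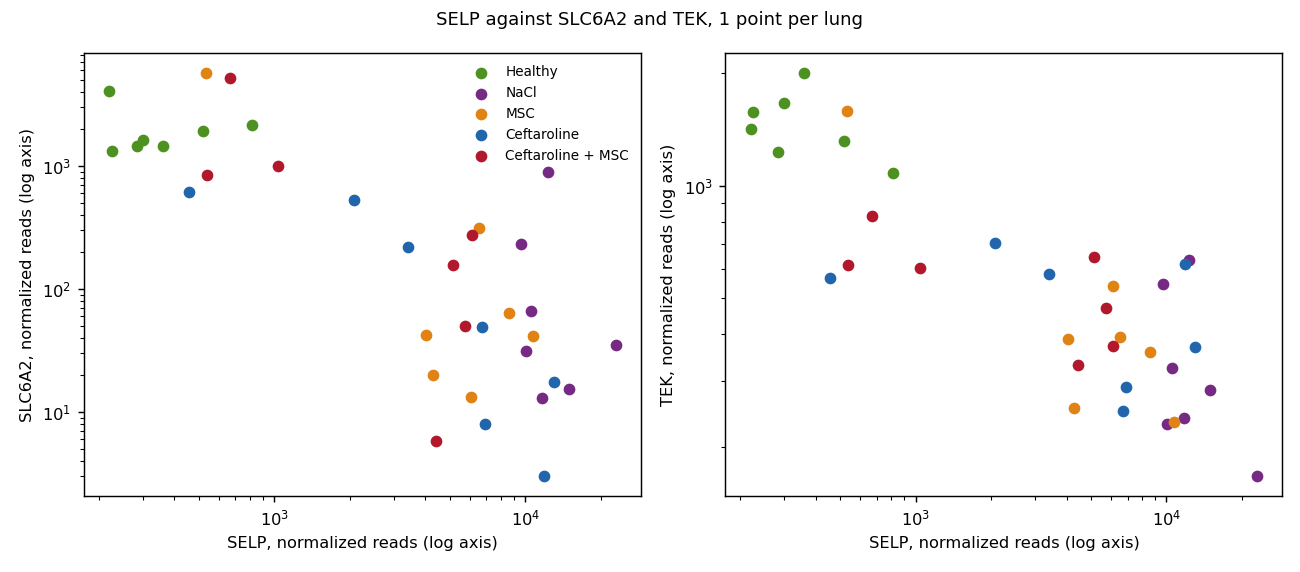
SELP against SLC6A2 (left) and TEK (right) in normalized reads on log axes, 1 point per lung, coloured by group. The healthy group lies at the upper left of both panels. Ceftaroline replicate 7, with 456 for SELP, has 620 for SLC6A2 and a TEK level of 567, the median of its group.

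The genes whose log2 levels followed each member most closely over 35 libraries were ranked by Pearson's r among 6639 named genes whose mean reached 50 normalized reads, as a description that shares group differences and libraries. For SELP these were PNP, a purine phosphorylase (0.97), TIMP1, an inhibitor of matrix proteases (0.96), RRP9, IL6, an acute inflammatory cytokine, and ADAMTS4, a matrix protease (0.96 each). After subtraction of group means they were PNP (0.92), IL4R, the interleukin 4 receptor (0.90), TNIP1 (0.89), TIMP1 (0.88) and BIRC3 (0.88). The lowest values were those of MMP2, a matrix protease (-0.90), FGF18 (-0.88) and EDA (-0.88).

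For TEK the closest genes by level were KLHL5 (0.94), PGR, FAM117B and PCMTD1 (0.92 each). After subtraction they were KLHL5 (0.92), RUBCN (0.83), CALCRL, a receptor of adrenomedullin on endothelium (0.83), PGR (0.82) and BMPR2, the receptor of bone morphogenetic proteins (0.82). The lowest were PLA2G4A (-0.83), WDR55 (-0.80) and RELT (-0.80). CALCRL and BMPR2 are also in the pan-endothelial list.

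For SLC6A2 the closest by level were MAGED2 (0.93), BMPER (0.93), USP54, GPD1L and WWC1 (0.92 each). After subtraction they were MAGED2 and WWC1 (0.90 each), PON2, METTL7A and the epithelial sodium channel subunit SCNN1B (0.89 each). The lowest were SNX18 and CD53, a leukocyte tetraspanin (-0.90 each), and PTPN2 (-0.89). None of the 3 members stood among the closest 5 of another.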

How the data were processed

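Messenger RNA of 35 rabbit lungs was sequenced in a library each. The kit kept strand and gave single 75 bp reads, which were trimmed with Cutadapt 1.15, per the labels' protocols. The submitters' processing notes name DESeq2 1.24.0, featureCounts 1.5.2 and TopHat2 2.1.1 in no stated role. The genome build, like the annotation, is not given in the sources used here. Each of 4 deposited tables holds 14 libraries as a signal (per the file headers, read counts divided by size factors), and the authors' log2 fold change with its standard error, Wald statistic (a score) and p-value.

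Values were whole multiples of 1 read within 1e-06 (100% of values), so reads were recovered. The 14 libraries in more than 1 table were used once. limma 3.58.1 in R 4.3.3 was applied to log2(value + 1) for genes with at least 10 in at least 7 of 14 libraries, two-sided, with Benjamini-Hochberg adjustment at 0.05. Differences are on that scale, which understates those of low genes. The 2 pairs without a table used size factors over all 35 libraries. edgeR 4.0.16 and DESeq2 1.42.0 on recovered reads, other pseudocounts, no filter, TMM scaling, left-out libraries and a replicate block were alternatives. The test was tried on simulated data.

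The members, lists and tests were chosen with earlier results of these data known. Genes named are the 3 members, of each pathway list the 4 called with the lowest p in healthy against NaCl and any called elsewhere, and the closest and most opposed genes by r. Of the genes so chosen, 2 are not reported here. Further list members, such as VCAM1, SLC22A3 and ACKR1, were named after their values were seen. Nothing in the labels beyond 1 rabbit per library and the unexplained titles describes the replicates, and p-values measure the spread between these rabbits. No 2 libraries of a group were near-identical (lowest chi-square per degree of freedom 37.2).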

Additional observations from a re-analysis of the deposited data

Results flagged for a closer look

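In 6 of 15 sets of 7 lungs, 1 lung lay so far from the nearest other that the gap, divided by the group's range, exceeded Dixon's 95% limit. Chance flags about 1 in 20 such groups. For SELP this was NaCl replicate 4, with 22972 normalized reads. For TEK it was MSC replicate 6, with 1581. For SLC6A2 it was healthy replicate 2 with 4063, NaCl replicate 7 with 899, MSC replicate 6 with 5659 and ceftaroline plus MSC replicate 3 with 5158. The limit was applied to levels, not to log2 levels, and 4 of the 6 lie in SLC6A2, the gene with the widest spread in the pneumonia groups. MSC replicate 6 was marked in both TEK and SLC6A2.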

How the results depend on the processing

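Of the differences of the 3 genes, most kept their direction and their side of the threshold under each alternative. SELP did so in all comparisons and alternatives run. With titles without PD or PG only, TEK differed between healthy and NaCl by -2.99, and between ceftaroline plus MSC and NaCl by 1.22, past the threshold (adjusted p = 0.0105). With 1 library left out, TEK in the latter pair ranged from 0.60 to 0.92, and TEK in the MSC effect with less that without ceftaroline from -0.42 to 0.058. SLC6A2 for MSC against NaCl ranged from -0.38 to 1.24 with 1 library left out and was -0.11 with a replicate block. SLC6A2 for ceftaroline against NaCl turned positive with a pseudocount of 5 (0.060), edgeR (0.25), DESeq2 (0.20), edgeR over all libraries (0.22), titles without an ending (1.39) and a replicate block (0.53), and ranged from -0.62 to 0.59 with 1 library left out. The causes were not tested. Same-numbered libraries did not pair clearly. Over 7 pairs of ceftaroline with and without MSC, r ran from -0.385 to 0.484, and 2 of 7 were closest to their own number. So few pairs cannot settle whether the number is more than a label. In that comparison the replicate block called 0 genes against 4 without it. There, 8 were called with TMM scaling, 11 with edgeR, 99 with DESeq2 and 7 with edgeR over all libraries. For MSC against NaCl 297, and for ceftaroline against NaCl 350, were called by edgeR over all libraries, and for the latter 189 by limma without NaCl replicate 1. Of the 5 closest genes by level, Spearman's rho shared 1 for SELP, 3 for TEK and 3 for SLC6A2. SLC6A2 rests on few reads in the lowest lungs, so its folds there are imprecise.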
